A study of Mus musculus with 5 samples.

Results

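The Nkx genes encode homeodomain transcription factors of the NK class. The 9 genes described here, Nkx1-2, Nkx2-1, Nkx2-2, Nkx2-3, Nkx2-5, Nkx2-6, Nkx3-2, Nkx6-1 and Nkx6-2, were taken as a named list out of 22380 protein-coding genes annotated on the mouse mm9 genome. ChIP-Seq of CBX2 was performed on mouse embryonic fibroblasts (MEFs) whose Eed gene, which encodes a subunit of Polycomb Repressive Complex 2 (PRC2), carried loxP sites in every line used. Control cells were of the floxed line with Eed undeleted, and the text of the study does not say whether they carried an empty vector. EZHIP cells stably expressed human EZHIP, and K27M cells stably expressed the H3.3 K27M mutant histone, each from a lentiviral EF1a-promoter vector with puromycin selection, in lines that the study calls isogenic. All of these MEFs were isolated from an E13.5 embryo. Each group had 1 library and 1 list of broad peaks, holding, as used here, 289 (Control), 255 (EZHIP) and 327 (K27M) peaks. The lists hold only peak positions in steps of 200 bp, so the read depth and the height of a peak are unknown, no value has a replicate error, and no test was possible. K27R and EEDnull libraries are described in the labels and were not analysed here.

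Nkx genes are switched on in restricted embryonic territories, such as the heart, the foregut, the ventral neural tube and the axial skeleton, and are silent elsewhere. Silent developmental genes of this kind are classical targets of Polycomb repression, in which PRC2 trimethylates lysine 27 of histone H3 over CpG-rich DNA and Polycomb Repressive Complex 1 (PRC1) binds the mark through a chromobox subunit such as CBX2. EZHIP and H3 K27M both inhibit PRC2. The comparison addressed whether the PRC1 subunit stayed at its sites when PRC2 was inhibited. None of 10 fibroblast genes (Col1a1, Col3a1, Vim and Pdgfra among them) had a CBX2 peak within 5 kb in any list. Over all protein-coding genes only 1.49% (Control), 1.44% (EZHIP) and 1.78% (K27M) had such a peak, so this count cannot check the cell type. The lists hold no expression data with which the cell type could be checked.

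For each gene, peaks were taken that overlapped the gene body extended by 5 kb on each side. Control and EZHIP lists each held a peak at 5 of the 9 Nkx genes, and the K27M list held a peak at 7. Over all protein-coding genes, 1.49% had such a peak in the Control list, 1.44% in that of EZHIP and 1.78% in that of K27M. The members were chosen with earlier results of these data known, so their contrast with these shares is not independent of the data. Among 4 other Nkx genes, described below, 1, 1 and 2 had a peak in Control, EZHIP and K27M. The same 5 genes, Nkx2-1, Nkx2-3, Nkx2-5, Nkx3-2 and Nkx6-1, had a peak in all lists, against 1.02% of all genes. Nkx2-2 and Nkx2-6 had a peak in K27M alone, a pattern found at 0.492% of all genes. Nkx1-2 and Nkx6-2, both on chromosome 7, had none in the lists as used here, which may be incomplete for that chromosome. The annotated 5′ end of the gene lay inside a Control peak for 5 members, an EZHIP peak for 4 and a K27M peak for 6, against 0.903%, 0.894% and 1.19% of all genes. No member had more than 1 peak in a list, and no peak contained the 5′ end of another protein-coding gene.

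**Figure D1:**
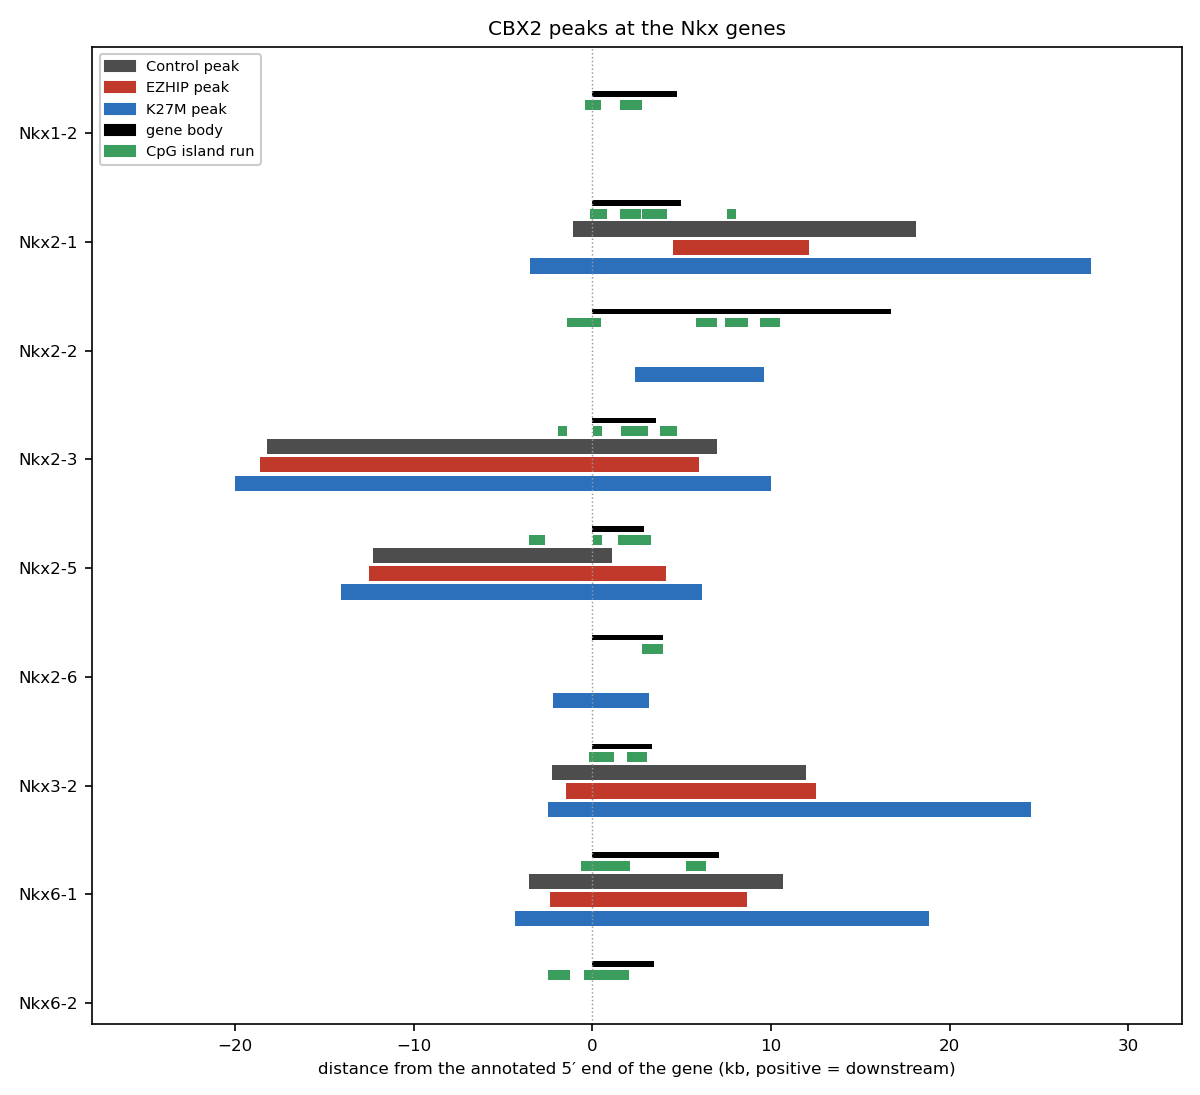
Position of each CBX2 peak (bars, one colour per list) relative to the annotated 5′ end of the 9 Nkx genes, in kb along the direction of transcription, with the gene body in black and CpG island runs within 5 kb of the gene in green. The EZHIP peak at Nkx2-1 starts 4495 bp downstream of the 5′ end, whereas the Control and K27M peaks contain it.

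The DNA just upstream of the gene starts is shown for 4 members that cover the range of outcomes, a peak over the start in all lists (Nkx2-3), a start outside the EZHIP peak (Nkx2-1), a peak over the start in K27M alone (Nkx2-6) and no peak (Nkx6-2). Each line gives the 250 bases before the annotated start on mm9, read 5′ to 3′ on the strand of the gene. CpG dinucleotides, which are dense in CpG islands, are in capitals. The stretches lie at chr19:43686565-43686814 (plus strand), chr12:57637896-57638145 (minus), chr14:69789383-69789632 (plus) and chr7:146768697-146768946 (minus).
Nkx2-3: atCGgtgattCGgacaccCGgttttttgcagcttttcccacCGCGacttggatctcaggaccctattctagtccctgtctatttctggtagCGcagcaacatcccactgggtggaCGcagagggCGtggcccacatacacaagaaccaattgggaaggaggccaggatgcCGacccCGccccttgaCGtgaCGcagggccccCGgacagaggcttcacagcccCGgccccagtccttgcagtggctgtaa
Nkx2-1: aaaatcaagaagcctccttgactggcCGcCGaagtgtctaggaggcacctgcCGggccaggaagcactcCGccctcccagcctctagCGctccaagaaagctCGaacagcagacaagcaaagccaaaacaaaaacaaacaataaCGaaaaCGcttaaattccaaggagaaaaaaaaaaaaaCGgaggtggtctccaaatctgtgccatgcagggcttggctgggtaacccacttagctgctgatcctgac
Nkx2-6: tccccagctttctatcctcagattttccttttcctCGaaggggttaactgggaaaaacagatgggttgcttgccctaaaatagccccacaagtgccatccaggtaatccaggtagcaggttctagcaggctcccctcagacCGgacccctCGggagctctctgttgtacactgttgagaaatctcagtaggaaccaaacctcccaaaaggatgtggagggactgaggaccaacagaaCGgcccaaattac
Nkx6-2: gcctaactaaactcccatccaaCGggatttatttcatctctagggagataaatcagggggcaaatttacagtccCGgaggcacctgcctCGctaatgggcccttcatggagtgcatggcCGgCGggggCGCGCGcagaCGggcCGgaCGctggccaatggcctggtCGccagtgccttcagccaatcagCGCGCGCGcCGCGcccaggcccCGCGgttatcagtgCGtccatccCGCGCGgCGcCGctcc

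The stretch held 14 CpG at Nkx2-3, 9 at Nkx2-1, 4 at Nkx2-6 and 26 at Nkx6-2. The median over 22375 protein-coding genes was 8 (middle 50%, 3 to 18). The most CpG-rich of these 4 starts, Nkx6-2, had no CBX2 peak in any list, and the poorest, Nkx2-6, had a K27M peak. These 4 were picked by outcome, and Nkx6-2 lies on chromosome 7, for which the lists may be incomplete. Nkx6-1, Nkx2-2 and Nkx1-2 each held 19 CpG, with a peak at the gene in all lists, in K27M alone and in none. Nkx1-2 also lies on chromosome 7. A CpG island window (500 bp, G+C of 55% or more, and CpG at 0.65 or more of the number its C and G content predicts) lay within 1000 bp of the 5′ end of 8 of the 9 members, all but Nkx2-6, against 53.2% of all genes. Across all genes, starts with such a window lay in a Control peak in 1.40% of cases and starts without it in 0.334%. For EZHIP peaks these shares were 1.39% and 0.325%, and for K27M peaks 1.85% and 0.449%.

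Overlapping CpG island windows were joined into runs. Within 5 kb of the 5 genes with a peak in all lists there were 15 runs. The Control peaks contained 14 of them whole, the EZHIP peaks 12 and the K27M peaks all 15. The run outside the Control peaks began within the body of Nkx2-5, and the 3 runs outside the EZHIP peaks all lay at Nkx2-1. These 5 genes were picked for having a peak in all lists, and most of those peaks cover the whole gene. Runs there were therefore likely to lie inside a peak. Within 5 kb of all 9 members there were 24 runs. Control peaks contained 14 of the 24 whole, EZHIP peaks 12 and K27M peaks 17. The share over all CpG island runs of the genome was not computed.

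Among the genes of heart and visceral mesoderm, Nkx2-3, which acts in spleen and gut mesenchyme, had the peaks most alike in width. The gene spans 43686815 to 43690381 on the plus strand of chromosome 19. Its Control peak measured 25.2 kb, its EZHIP peak 24.6 kb and its K27M peak 30.0 kb. All of the gene body was covered in each list. Most of the peak lay upstream, reaching 18.2, 18.6 and 20.0 kb before the 5′ end in Control, EZHIP and K27M. The peak also contained the start of Gm20467, an annotated non-coding transcript on the opposite strand.

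Nkx2-5, a core regulator of heart development, lies on the minus strand of chromosome 17 (26975609 to 26978510). Its Control peak measured 13.4 kb, the EZHIP peak 16.6 kb and the K27M peak 20.2 kb, and it was the only member whose EZHIP peak was wider than the Control peak. The Control peak ended 1109 bp after the 5′ end and covered 38.2% of the gene body. In both other lists the whole body was covered, with the downstream edge 4109 bp after the 5′ end in EZHIP and 6109 bp in K27M. The upstream edge differed less, at 12.3, 12.5 and 14.1 kb before the 5′ end in Control, EZHIP and K27M.

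Nkx2-6, expressed in pharyngeal and cardiac precursors, had a peak of 5.40 kb in K27M alone. The gene spans 69789633 to 69793596 on the plus strand of chromosome 14. The peak ran from 2232 bp before the 5′ end to 3167 bp after it and covered 79.9% of the body. It was narrow for its list, ranking 234 of 327 by width. The nearest Control peak lay 4.58 Mb from the gene and the nearest EZHIP peak 5.90 Mb. The only CpG island run within 5 kb, 1150 bp long, lay near the 3′ end of the gene, and 32.0% of it was inside the peak. The start of 1700092C10Rik, a non-coding transcript on the opposite strand, lay in the same peak.

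Nkx2-1, which specifies thyroid, lung and parts of the ventral forebrain, differed most between lists. It lies on the minus strand of chromosome 12 (57632922 to 57637895). The Control peak measured 19.2 kb, the EZHIP peak 7.60 kb and the K27M peak 31.4 kb. Control and K27M peaks covered the whole gene and began 1105 bp and 3505 bp before the 5′ end. The EZHIP peak lay wholly within the Control peak and covered 39.6% of it. It overlapped only the last 479 bp of the gene body (9.63%) and extended downstream of the gene. Of the 4 CpG island runs within 5 kb of Nkx2-1, the 3 that lay over the gene were in the Control and K27M peaks and outside the EZHIP peak. The EZHIP peak kept the run between 7524 and 8023 bp downstream of the 5′ end. The central 250 bases of that run (chr12:57629996-57630245, minus strand, CpG in capitals) are shown because they belong to the only CpG island sequence at this gene that stayed inside a peak in all lists. They held 12 CpG.
Nkx2-1 downstream run: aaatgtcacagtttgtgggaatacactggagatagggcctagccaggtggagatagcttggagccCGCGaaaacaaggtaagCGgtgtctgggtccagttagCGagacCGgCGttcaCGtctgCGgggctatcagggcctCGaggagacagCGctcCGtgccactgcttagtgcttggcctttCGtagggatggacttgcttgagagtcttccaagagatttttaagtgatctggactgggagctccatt

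In Nkx2-1 the EZHIP to Control width ratio was 0.396, a log2 ratio of -1.34. Among 258 protein-coding genes with a peak in both lists, 5.81% had a ratio as low or lower. The 5′ end of Nkx2-1 was the only one of 5 member starts in a Control peak that lay in no EZHIP peak, which is close to the background of 20.8% of 202 such starts. In K27M 0 of these 5 starts lay outside a peak, against 12.9% of the 202. Shares over all genes, here and elsewhere, count genes and not peaks, so genes that share a peak weigh more. On chromosome 13, 37 of the 202 starts lay in its 26 Control peaks, and 23 starts lay in K27M peaks.

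The remaining members act mainly in the ventral neural tube, the pancreas and the skeleton. Nkx6-1, needed for pancreatic beta cells and somatic motor neurons, lies on the minus strand of chromosome 5 (102087158 to 102094245). The widths were 14.2 kb for Control, 11.0 kb for EZHIP and 23.2 kb for K27M, and the peak contained the whole gene in each list. The EZHIP peak was shorter at both ends, and the K27M peak reached 18.8 kb downstream of the 5′ end against 10.6 kb in Control.

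Nkx3-2, also called Bapx1, is required for the axial skeleton and represses cartilage maturation. It lies on the same chromosome and strand, 59931 kb away (42152404 to 42155735). The widths were 14200 bp for Control, 14000 bp for EZHIP and 27000 bp for K27M. Control and EZHIP widths differed by 200 bp, the smallest step the lists can show. The K27M peak was 1.90 times as wide as the Control peak, the largest ratio among the members. Nearly all of the added width lay downstream, where the edge moved out by 12600 bp, while the upstream edge moved out by 200 bp.

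Nkx2-2, a determinant of ventral neural progenitors, oligodendrocytes and pancreatic endocrine cells, had a peak of 7.20 kb in K27M alone. The gene model spans 147003282 to 147019979 on the minus strand of chromosome 2. The peak ran from 2379 to 9578 bp downstream of the outermost annotated 5′ end, which belongs to a non-coding transcript, and so did not contain it. It did contain the start of the coding transcripts. The RefSeq start, placed on mm9 by its promoter sequence, lay 7841 bp downstream of the outermost end, inside the peak. With the coding starts the number of member starts in a K27M peak was 7 of 9. Among the 8 members with a RefSeq start, 6 had it in a K27M peak, and Nkx2-6 was not among the 8. No peak of the Control or EZHIP list lay closer than 86.1 kb, so no member had a peak just outside the 5 kb limit. Of the 4 CpG island runs near Nkx2-2, 2 were wholly in the K27M peak, and the run at the outermost 5′ end was outside it.

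**Figure D2:**
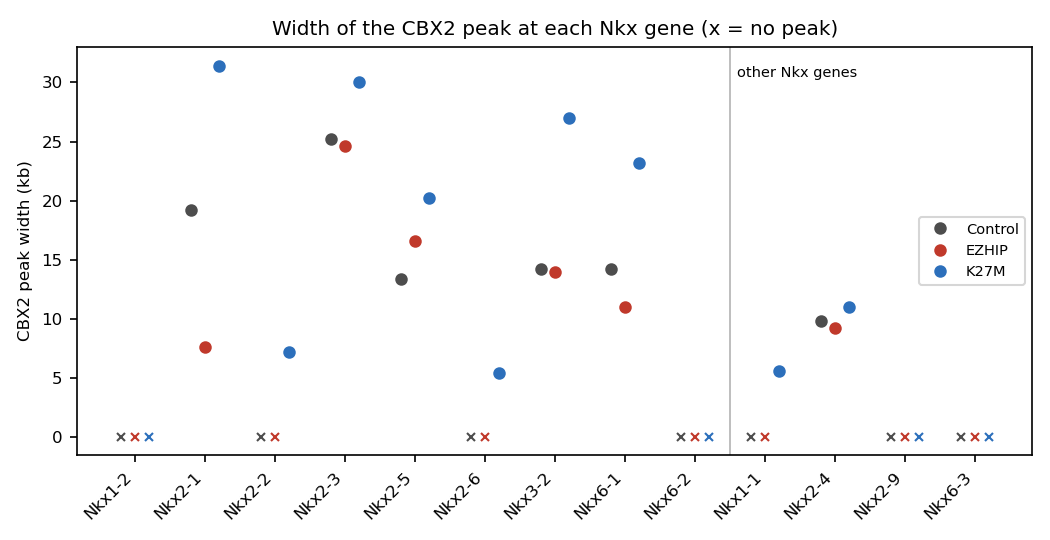
Width of the CBX2 peak in kb (y axis) at each of the 9 members and 4 other Nkx genes (x axis) in the Control, EZHIP and K27M lists, 1 library each, with crosses where the list has no peak. The K27M point is the highest at each gene that has a peak, and Nkx2-1 spans 7.60 to 31.4 kb.

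Nkx1-2, active in the caudal neural plate and tail bud, and Nkx6-2, which acts in neural progenitors and oligodendrocytes, had no peak in any list. Both have a CpG island window at the start, with 2 runs each that sum to 2.05 kb at Nkx1-2 and 3.70 kb at Nkx6-2. They are also the only members on chromosome 7 (139786560 to 139791320 and 146765276 to 146768696, minus strand). In the lists as analysed here, chromosome 7 held 3 Control, 4 EZHIP and 3 K27M peaks, or 6.56 peaks of the 3 lists per 100 Mb. The other 18 autosomes ranged from 11.2 to 73.4 per 100 Mb, with a median of 31.6. The last peak on chromosome 7 ended at 138702400, and none lay in the final 13.8 Mb, which holds Nkx1-2, Nkx6-2 and 202 gene starts in all, 96 of them with a CpG island window. Nkx1-2 was 1.08 to 1.09 Mb and Nkx6-2 8.06 Mb from the nearest peak. That last peak, at the NK-like genes Hmx2 and Hmx3, was present in all lists, with widths of 15.8, 15.4 and 17.8 kb for Control, EZHIP and K27M. It is not known whether the lists used here hold every peak called on this chromosome, which limits what the lack of a peak at Nkx1-2 and Nkx6-2, and the counts out of 9, can show. Whether the low number of peaks there bears on the absence at Nkx1-2 and Nkx6-2 was not tested. Of the 7 members on other chromosomes, all had a K27M peak and 5 had a Control and an EZHIP peak. This subset was formed after the values were seen. Its 5′ ends lay in a Control peak for 5 members, an EZHIP peak for 4 and a K27M peak for 6. Over all genes on other chromosomes these shares were 0.985%, 0.980% and 1.30%.

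**Figure D3:**
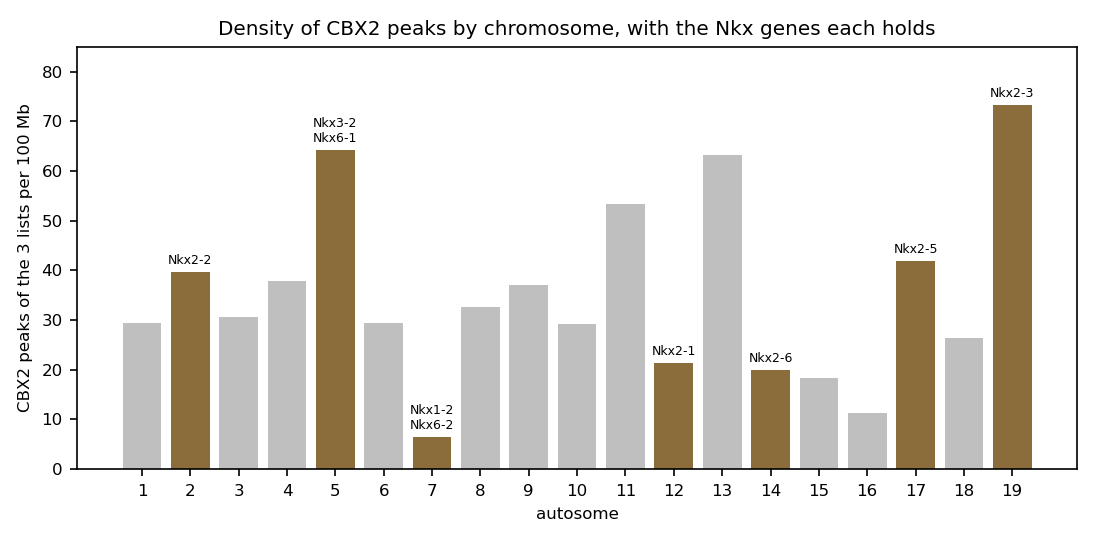
CBX2 peaks of the 3 lists per 100 Mb (y axis) on each autosome (x axis), with brown bars for chromosomes that hold members, named above the bar. Chromosome 7, with Nkx1-2 and Nkx6-2, has the lowest bar, at 6.56 per 100 Mb.

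Widths were then compared gene by gene at the 5 members with a peak in all lists. In K27M the peak was wider than in Control at 5 of 5, by a factor of 1.19 at Nkx2-3, 1.51 at Nkx2-5, 1.63 at Nkx6-1, 1.64 at Nkx2-1 and 1.90 at Nkx3-2. The median log2 ratio was 0.71 (range 0.25 to 0.93). Over 278 genes with a peak in both lists, 61.9% were wider in K27M, and the median log2 ratio was 0.12 (middle 50%, -0.04 to 0.71). The members' median therefore equalled the upper limit of that middle range. Widening was not particular to the members. It was also found at Nkx2-4 (factor 1.12) and at all 16 other NK-like homeobox genes with a Control peak, described below. The median peak width of the whole list was 7.40 kb in Control and 9.60 kb in K27M. When peaks were cut off at the limits of the 5 kb window, the members' median fell to 0.21, because the K27M widening lay largely beyond the window.

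In EZHIP the peak was narrower than in Control at 4 of 5 members, against 56.6% of 258 genes. The log2 ratios were -1.34 at Nkx2-1, -0.37 at Nkx6-1, -0.03 at Nkx2-3, -0.02 at Nkx3-2 and 0.31 at Nkx2-5. Their median, -0.03, was close to the -0.06 of all genes (middle 50%, -0.33 to 0.21). At Nkx2-3 and Nkx3-2 the difference was 600 bp and 200 bp on peaks of 14.0 kb or more. The EZHIP and K27M comparisons share the Control list, so their ratios are not independent of each other.

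**Figure D4:**
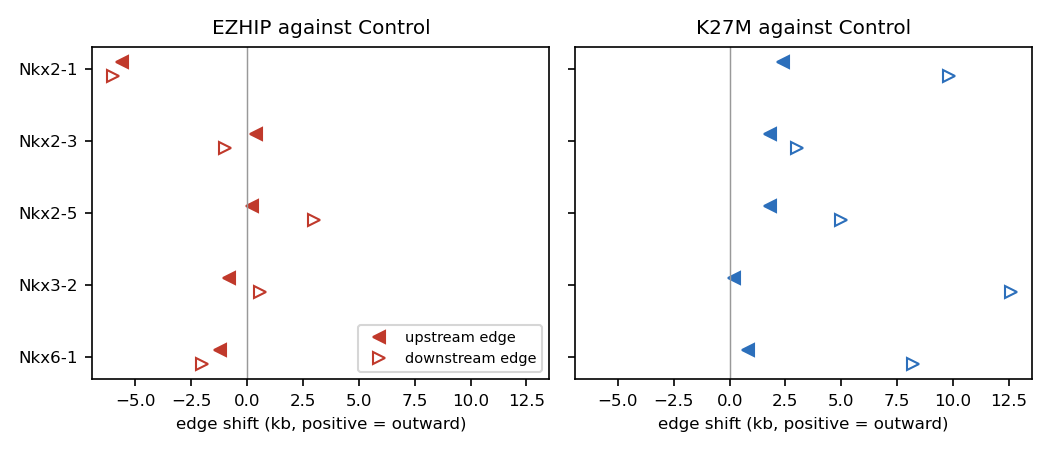
Shift of the upstream (filled) and downstream (open) edge of the CBX2 peak against Control, in kb with outward shifts positive (x axis), for the 5 members with a peak in all lists (y axis), in EZHIP (left) and K27M (right). All 10 K27M edges lie to the right of 0, and at each gene the downstream edge moved further than the upstream edge.

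The edges showed where the width differed. In K27M both edges lay outside those of Control at 5 of 5 members, so that each Control peak was wholly contained in the K27M peak. This was so for 47.9% of the 213 genes with exactly 1 peak in each list. The upstream edge moved out by 200 to 2400 bp (median 1800 bp) and the downstream edge by 3000 to 12600 bp (median 8200 bp). The downstream edge moved further than the upstream edge at 5 of 5 members and at 40.4% of the 213 genes. Medians over those genes were 600 bp upstream and 200 bp downstream. At Nkx2-4, described below, the K27M upstream edge moved out further (800 bp) than the downstream edge (400 bp). The other NK-like genes went either way, with Tlx1 further upstream and Bsx further downstream. Direction here is that of transcription of the gene named. At the members, the downstream edge lay beyond the 3′ end of the gene in all 5 K27M peaks.

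In EZHIP the edges moved both ways. Both lay inside those of Control at Nkx2-1 (by 5600 bp upstream and 6000 bp downstream) and at Nkx6-1 (1200 and 2000 bp), that is at 2 of 5 members, against 25.4% of the 213 genes. At Nkx2-5 both lay outside, by 200 and 3000 bp. At Nkx2-3 the upstream edge moved out by 400 bp and the downstream edge in by 1000 bp, and at Nkx3-2 the upstream edge moved in by 800 bp and the downstream edge out by 600 bp.

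For 4 other Nkx genes the same values were taken. Nkx2-4, which lies 92.1 kb from Nkx2-2, had its 5′ end in a peak in all lists, with widths of 9.80 kb (Control), 9.20 kb (EZHIP) and 11.0 kb (K27M). Nkx1-1 had a peak of 5.60 kb over its start in K27M alone. Nkx2-9 and Nkx6-3 had none. Nkx2-9 lies 74.5 kb from Nkx2-1, which had a peak in all lists. Together, 6 of these 13 Nkx genes had a Control peak, 6 an EZHIP peak and 9 a K27M peak. The shares over all genes were 1.49%, 1.44% and 1.78%.

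The other NK-like homeobox genes gave a wider comparison. This list of 24 genes (Hmx, Lbx, Tlx, Barx, Barhl, Bsx, Dbx, Emx, En, Hhex, Hlx, Noto and Vax) was set up without the Dlx and Msx genes. A Control peak lay within 5 kb of 16 of them, an EZHIP peak of 12 and a K27M peak of 18. Over all genes these shares were 1.49%, 1.44% and 1.78%. Hmx2 and Hmx3 share the same peak in each list, so genes are not separate peaks. Control peaks contained 14 of the 5′ ends, EZHIP peaks 7 and K27M peaks 16, against 0.903%, 0.894% and 1.19% of all genes. Of the 14 starts in a Control peak, 7 lay in no EZHIP peak and 0 in no K27M peak, against 20.8% and 12.9% of the 202 starts in a Control peak over all genes. At 5 of those 7 genes (Hmx3, Tlx1, Barx1, Bsx and Vax2) the EZHIP list had a peak near the gene but not over the start. The side and distance differed. The Hmx3 peak began 620 bp downstream of the start, and the Barx1 peak lay wholly upstream, unlike that at Nkx2-1. Vax2, an eye and forebrain gene, had the widest Control peak of the list, at 27.4 kb, with 9.80 kb in EZHIP and 29.8 kb in K27M. Barhl2 measured 23.8, 19.6 and 29.4 kb in the same order. En1, a midbrain and limb gene, had a peak of 19.6 kb in Control, none in EZHIP and 20.0 kb in K27M. Hmx1, Barx2 and Emx1 were likewise without an EZHIP peak, and Barhl1 and Dbx2 had a peak in K27M alone.

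Outside the Nkx family, the genes whose widths were most like those of a member over the 3 lists were Olig3, Nr2e1 and Sim1. Likeness was the largest absolute log2 difference of width in any list, among genes with a peak in all lists and no peak shared with a member. Olig3 differed from Nkx3-2 by at most 0.12, with widths of 14.2 kb (Control), 13.4 kb (EZHIP) and 29.4 kb (K27M). Nr2e1 differed from Nkx2-3 by at most 0.12 and Sim1 from Nkx2-3 by at most 0.13.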

How the data were processed

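Peak lists of 3 CBX2 ChIP-Seq libraries (Control, EZHIP and K27M, grouped by their titles) were analysed. Per the methods, the authors used bowtie1 (Bowtie 1.0.0 in the submitters' processing notes) for alignment to mm9 and called broad peaks per library with MOSAiCS-HMM with a maximum gap of 10000 bp, so nearby calls were already joined into wide peaks. Use of an input library and scaling before peak calling are not given in the sources used here. The number and width of called peaks can move with read depth, which is unknown. The deposited files hold start and end of each peak, with no signal, score or p-value, and the last base of each 200 bp bin was read as included.

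Genes came from GENCODE vM1 on NCBIM37, the assembly of mm9, which also gave the sequences. All 9 members were found. RefSeq promoters (GRCm38.p6) were matched by sequence to mm9 for 8 members, and no coordinates of that build were used. Widths are of whole peaks. Python 3.11.15, numpy 2.4.6 and matplotlib 3.10.9 were used. Peak, edge and start calls were tested on simulated data, with placed peaks recovered at 200 of 200 genes.

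The members and gene lists were chosen with earlier results of these data known. All members, 4 other Nkx genes and protein-coding genes sharing their peaks were named. Of the NK-like genes, the 3 widest in Control and those whose lists differed in presence were named, and 3 genes by likeness. Genes whose start left the EZHIP peak, and Hmx2 and Hmx3, were named after their values were seen. An item of the planned lists is not reported here.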

Additional observations from a re-analysis of the deposited data

Results flagged for a closer look

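At 4 members the EZHIP peak was narrower and the K27M peak wider than the Control peak. The K27M minus EZHIP difference of log2 width ratios was 2.05 at Nkx2-1, 1.08 at Nkx6-1, 0.95 at Nkx3-2 and 0.29 at Nkx2-3. Each group had 1 library, and the difference was not tested. At Nkx2-3 and Nkx3-2 the EZHIP side of the contrast rests on 600 bp and 200 bp.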

How the results depend on the processing

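Over 71 results and 10 alternatives, 452 values were computed. Of these, 426 stayed within 1.1 times of the reported value (1.5 times for a count), 26 moved and 0 changed direction. When peaks had to cover at least 50% of the gene body, the median Control width rose to 16.7 kb. Members with a peak then numbered 4 in Control (without Nkx2-5), 4 in EZHIP (without Nkx2-1) and 6 in K27M (without Nkx2-2), 3 of them in all lists. With widths cut off at the window limits, the medians were 11.1 kb (Control) and 9.80 kb (EZHIP) over 5 members, and 11.1 kb (K27M) over 7. These 7 include Nkx2-2 and Nkx2-6, at 7.20 and 5.40 kb. At Nkx2-1, Nkx2-3, Nkx2-5, Nkx3-2 and Nkx6-1 the K27M widths were then 13.5, 13.6, 11.1, 10.8 and 16.4 kb. The Control widths, in the same order, were 11.1, 12.0, 6.11, 10.6 and 14.2 kb, and the median K27M log2 ratio was 0.21. Nkx3-2 then had a K27M log2 ratio of 0.03. This alternative accounts for 19 of the 21 moved values of single genes. The other 2 are the start of Nkx2-2, inside the K27M peak when coding transcripts or RefSeq give the start. The RefSeq start and an equal number of widest peaks (255 per list) were chosen after seeing the data. Gene bodies without extension, a 10 kb extension, peaks of at least 5000 bp, starts within 1000 bp of a peak, and equal numbers of peaks moved no result beyond these limits. For the members most of these could change little. Every member peak overlapped the gene body, was at least 5.40 kb wide and ranked 234 or better by width in its list. Members without a peak had none closer than 86.1 kb. Unchanged member values under these alternatives are therefore little evidence of robustness. The limit for a count is wide. With peaks of at least 5000 bp, the other NK-like genes with a peak fell from 16 to 12 in Control. They fell from 12 to 9 in EZHIP and from 18 to 16 in K27M. Joining of peaks closer than 10000 bp could change little, as the caller had joined calls over gaps of that size, and only 9 Control, 4 EZHIP and 5 K27M gaps were shorter. No paired analysis was possible because a single library stood for each group, and for the same reason none could be left out. Without reads or heights, a missing peak may also be one that the caller did not reach at that depth.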
